A study of Mus musculus with 40 samples.

Results

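Cultured mouse oligodendrocytes that had begun to differentiate were kept with interferon-gamma (IFN-gamma) for 48 h and compared with the same kind of culture left untreated for 48 h. The comparison takes the 8 libraries of the series whose labels give these treatments and this time, 4 IFN-gamma and 4 untreated, of 40 libraries in all. IFN-gamma was given at 200 U/ml, and the untreated cultures received neither it nor the other agent of the series, thapsigargin. All libraries came from wild-type mice of the C57BL/6 background aged 6 to 7 days, with no transgene and no disease model in either group. Progenitors were purified from pup cortex by immunopanning, which catches cells on antibody-coated dishes, although the tissue label reads whole brain. They were grown through 2 passages and left to differentiate for 12 to 14 h before plates were, by the protocol, drawn at random for treatment. Y-linked and Xist levels, given below, differed within each group, so the libraries of a group did not all come from the same pool of cells. A culture of this kind lacks the axons that oligodendrocytes wrap and the immune cells that make IFN-gamma in the body. The labels do not say whether the 4 libraries of a group are separate cultures or animals, so a p-value here covers only how much these libraries vary, which may in part be technical.

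IFN-gamma is a cytokine made mainly by activated T cells and natural killer cells. It binds a receptor coupled to the kinases JAK1 and JAK2, which activate transcription factors of the STAT family. STAT dimers bind the GAS element of target promoters, and factors made in this first step, such as IRF1, bind a second element, the ISRE, in a wider set of genes for cell-autonomous defence and antigen presentation. Oligodendrocytes mature from dividing progenitors that carry the receptor PDGFRA through a premyelinating stage to cells that make myelin proteins and lipids.

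Reads assigned to genes numbered 14334915 to 21033897 per library. Replicates of a group differed from each other by more than sampling noise (chi-square divided by its degrees of freedom, 13.1 or more in each pair). Levels are given as CPM, reads scaled to a common library size (counts per 1000000 reads), in the order of replicates 1 to 4, where a replicate number is only a name. The lineage factor Olig2 stood at 898, 688, 552 and 614 CPM in IFN-gamma cells, against 538, 700, 489 and 457 CPM in untreated cells, so that the labelled lineage was present in every library. Microglia, T cell and natural killer cell markers were near the limit of detection. The 16 microglia and macrophage markers summed to between 4.4 and 9.6 CPM in IFN-gamma libraries and between 5.96 and 8.64 CPM in untreated libraries, and the 9 T and natural killer cell markers to at most 2.09 and 0.95 CPM. Of these markers only P2ry12 and Cd68 had enough reads to be tested. Y-linked transcripts and Xist varied between libraries of both groups. IFN-gamma replicates 1 and 3 had 8.18 and 1.145 CPM of Y-linked transcripts with 718 and 508.5 CPM of Xist, while the other IFN-gamma libraries had at least 324.5 CPM of Y-linked transcripts and at most 8.315 CPM of Xist. The 4 untreated libraries had between 234 and 424 CPM of Y-linked transcripts and between 0.184 and 157 CPM of Xist. No untreated library was as low in Y-linked transcripts as IFN-gamma replicates 1 and 3, so treatment and this difference are partly mixed. The part of this difference in the results was not tested beyond a fit with the Y-linked level as a covariate, which called 5022 genes.

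One library in each group stood apart in the maturation genes. Mbp, which codes for myelin basic protein, was at 45.2, 193, 425 and 281 CPM in IFN-gamma cells, against 1731, 255, 2503 and 2718 CPM in untreated cells. IFN-gamma replicate 1 was thus the lowest of all, and untreated replicate 2 lay inside the IFN-gamma range and below each other untreated library. The 26 proliferation genes summed to 7090, 2430, 2840 and 4290 CPM in IFN-gamma cells, against 2180, 3480, 1980 and 2600 CPM in untreated cells, so that the same libraries were the highest of their group. Several results that rest on either library are given with and without it.

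A gene was called higher or lower at a Benjamini-Hochberg adjusted p under 0.05 in edgeR's quasi-likelihood test, with the spread of each gene pooled over the 10 groups of the series. Of 15135 genes tested, 2554 (16.9%) rose and 3016 (19.9%) fell in IFN-gamma cells, together 5570 (36.8%). Of the called genes 1309 had a fitted change of at least 2-fold (8.65% of genes tested), 728 upward (4.81%) and 581 downward (3.84%). A test against a 2-fold threshold itself called 571. Of all genes tested, called or not, 1451 (9.59%) had the 4 IFN-gamma libraries all above the 4 untreated ones and 1422 (9.40%) had them all below. The count of called genes was 4135 without IFN-gamma replicate 1, 6441 without untreated replicate 2 and 2041 when only these 8 libraries were fitted. Called in every one of the settings tried were 816 of the risen genes (31.9%) and 726 of the fallen genes (24.1%).

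The largest rises belonged to interferon-induced GTPases and the largest falls to genes of maturing oligodendrocytes. Across 12 lists of interferon-response genes, 139 of 168 genes passed the filter on low counts. Of these 125 rose and 2 fell, beside shares of 16.9% and 19.9% over all genes tested. For 28 of the 139 the untreated libraries held fewer than 10 reads in all, so that these genes passed the filter through the libraries in which they were high and their count carries no weight of its own. The lists are shown beside the background in the plot of list shares.

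**Figure D1:**
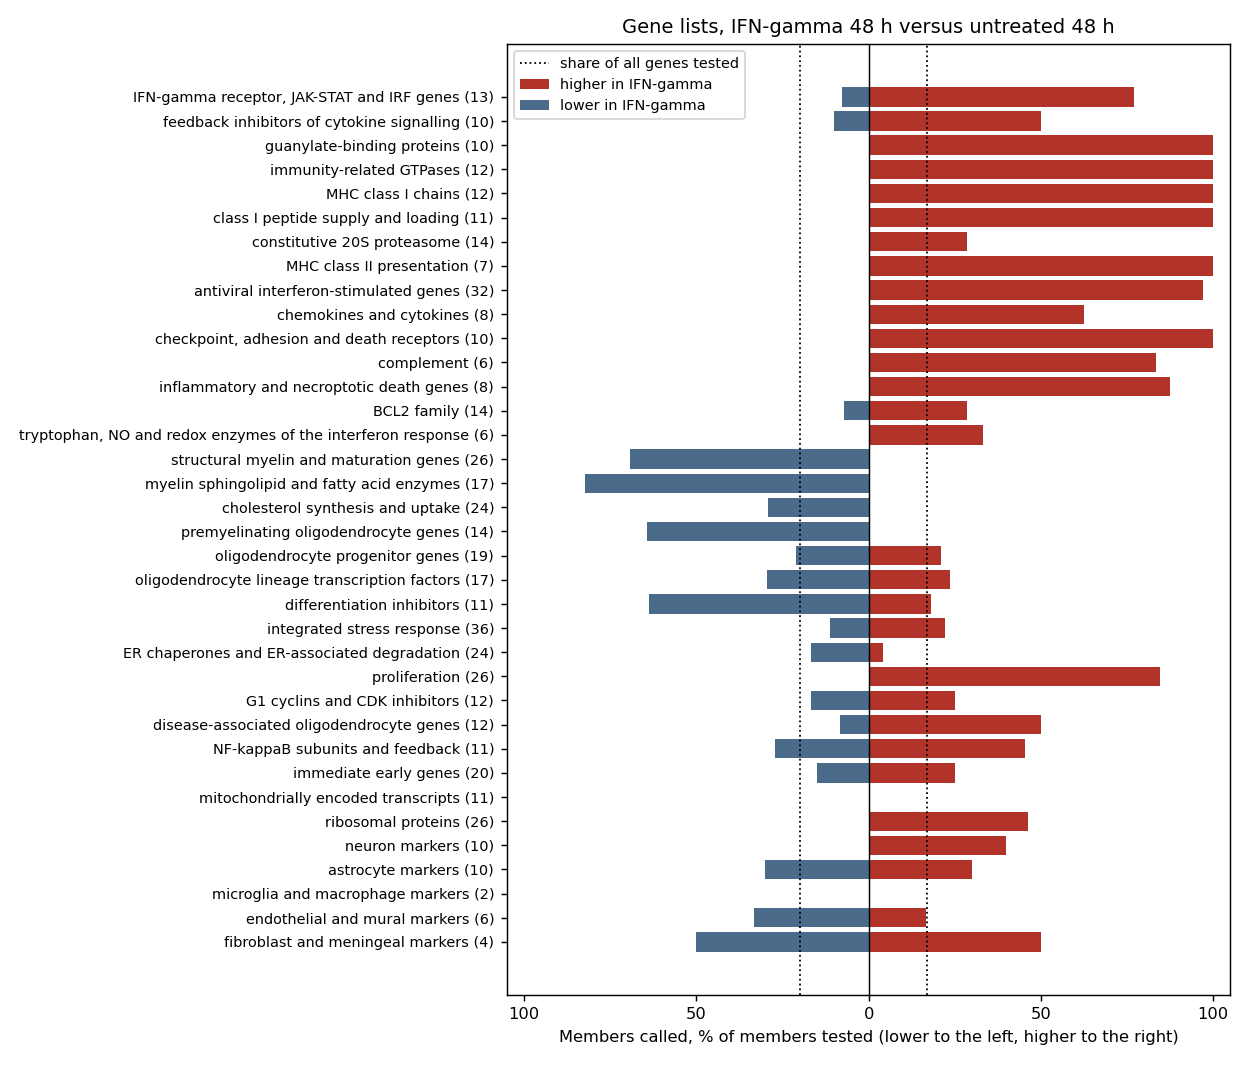
Share of the tested members of each gene list called higher (right) or lower (left) in IFN-gamma 48 h cells relative to untreated 48 h cells, in percent, with the number tested in brackets. Dotted lines mark the share of all 15135 genes called higher (16.9%) and lower (19.9%); interferon lists reach up to 100% higher, and the 4 lists of maturation and lipid genes have no member called higher.

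The signalling genes of the pathway changed by unequal amounts. The receptor chains were not induced: Ifngr1, the ligand-binding chain, was at 24.3, 24.5, 24.2 and 25.4 CPM in IFN-gamma cells, against 27.9, 26.6, 25.3 and 26.6 CPM in untreated cells, and was not called (log2 fold change -0.11 ± 0.07 SE, adjusted p = 0.228). Ifngr2, the signalling chain, fell to 18, 14.7, 17.9 and 17.9 CPM in IFN-gamma cells, against 22.3, 24.0, 21.8 and 21.9 CPM in untreated cells (-0.40 ± 0.09, adjusted p = 0.000571). The groups did not overlap in Ifngr2, whose call was lost in the upper 20 library numbers taken alone (adjusted p = 0.0918). The kinase genes Jak1 and Jak2 rose by 0.52 ± 0.06 and 0.79 ± 0.06.

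Irf1, the first-wave transcription factor, was at 808, 684, 775 and 800 CPM in IFN-gamma cells, against 20.6, 20.8, 17 and 21.4 CPM in untreated cells (log2 fold change 5.26 ± 0.13, adjusted p = 5.45e-27). The lowest IFN-gamma library lay far above the highest untreated one. Irf8, a factor best known from blood cells, was at 251, 225, 252 and 246 CPM in IFN-gamma cells, against 1.83, 2.04, 1.04 and 1.51 CPM in untreated cells (7.21 ± 0.24). Stat2 and Irf9, members of the ISGF3 complex of type I interferon signalling, rose by 2.97 ± 0.14 and 3.16 ± 0.12, and Irf7 by 6.49 ± 0.35. Stat3 and Irf2 rose by less (0.34 ± 0.04 and 0.86 ± 0.15), and Irf3 was not called (0.01 ± 0.08). In all, 10 of 13 tested genes of receptor, JAK-STAT and IRF signalling rose and 1 fell. The 10 rises were called in every setting tried, and the share of all genes that rose was 16.9%.

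Feedback inhibitors were high at the same time. Socs1, which blocks JAK kinases, was at 83.7, 42.8, 37.2 and 41.8 CPM in IFN-gamma cells, against 0.209, 0.452, 0.430 and 0.216 CPM in untreated cells (log2 fold change 7.23 ± 0.38, adjusted p = 1.02e-17). The groups were far apart, and IFN-gamma replicate 1 stood above the other 3. Usp18, which removes ISG15 from proteins and restrains the type I interferon receptor, rose by 7.19 ± 0.30, Socs2 by 2.80 ± 0.21, Cish by 0.79 ± 0.14 and Socs3 by 0.59 ± 0.16. Of 10 genes 5 rose (50%, beside 16.9% of all genes), and Pias3, of a family that restrains STAT proteins, fell slightly (-0.25 ± 0.09). The call of Pias3 was lost without IFN-gamma replicate 1 (adjusted p = 0.09) or without untreated replicate 2 (adjusted p = 0.0682). The phosphatase genes Ptpn1, Ptpn2 and Ptpn6 were not called (adjusted p = 0.896, 0.0842 and 0.111).

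Guanylate-binding proteins (GBPs) and immunity-related GTPases (IRGs) coat and disrupt the vacuoles of intracellular pathogens. Gbp2 was at 3876, 4398, 5417 and 4767 CPM in IFN-gamma cells, against 0.367, 0.362, 0.369 and 0.216 CPM in untreated cells (log2 fold change 13.72 ± 0.55, adjusted p = 3.22e-21). The 4 untreated libraries stayed below 1 CPM. Gbp4 was at 2221, 1630, 1812 and 1924 CPM in IFN-gamma cells, against 0.105, 0.407, 0.123 and 0 CPM in untreated cells (13.30 ± 0.40). Gbp3, Gbp6 and Gbp7 had more reads without treatment (at least 5.65, 1.45 and 10.8 CPM in each untreated library) and rose by 7.23 ± 0.23, 8.10 ± 0.26 and 5.64 ± 0.19. All 10 tested GBP genes of 11 listed rose, with a median log2 fold change of 8.39 against -0.0021 over all genes tested. Of all genes 16.9% rose, and 1 of the 10 GBP genes had fewer than 10 untreated reads. Gbp2b, at 14 reads in IFN-gamma and 4 in untreated libraries, was below the filter.

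All 12 listed IRG genes rose, beside 16.9% of all genes. Of the 12, 8 had fewer than 10 reads in the untreated libraries. These passed the filter through the libraries in which they were high, so their count carries no weight of its own. Irgm1 was the only one well expressed in untreated cells: it was at 2448, 2905, 3115 and 2930 CPM in IFN-gamma cells, against 68.9, 87.1, 47.4 and 50.3 CPM in untreated cells (log2 fold change 5.49 ± 0.20, adjusted p = 1.90e-22). Igtp was at 1393, 1613, 1871 and 1722 CPM in IFN-gamma cells, against 0.314, 0.317, 0.430 and 0.216 CPM in untreated cells (12.29 ± 0.41). Iigp1 was at 2191, 3383, 3656 and 2995 CPM in IFN-gamma cells, against 0.262, 0.0452, 0 and 0.0721 CPM in untreated cells (14.83 ± 0.47). In these and in Irgm2 (10.06 ± 0.38), Ifi47 (13.21 ± 0.35), Gm4951 (12.27 ± 0.41) and Gm12250 (11.50 ± 0.31) no library of one group came near the other. Tgtp2 and Tgtp1 had 3 reads each in the 4 untreated libraries, and their read ratios were 29800 (95% interval 10200 to 144500) and 11910 (4075 to 57750). F830016B08Rik had 2 untreated reads and a ratio of 3139 (868.5 to 25920). For 9930111J21Rik2, also with 2 untreated reads, the ratio was 3358 (929.2 to 27730). Gm5970, a further gene among the 12 largest rises, had no read in the untreated libraries and was at least 707-fold higher in IFN-gamma cells, taking 3 reads in the 4 untreated libraries together as the floor. These intervals and floors cover counting error only.

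Several IRG and GBP genes are near-identical neighbours, so reads may be divided between copies. Summed isoform estimates, which split shared reads differently, gave log2 fold changes of 8.86 for Gbp4, 3.63 for 9930111J21Rik2 and 4.50 for F830016B08Rik, all still called. Where untreated reads are this few the fitted size also moves with single libraries: Tgtp1 stood at 16.20 without untreated replicate 2, and Gbp10 at 15.34 against 10.89 with it.

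Several promoters of these genes carry the letters that STAT factors and the IRFs are known to bind. The following stretches are the 150 bases before the annotated start of Irf1, of 3 IRG genes, of Gbp2 and of B2m, the light chain of class I molecules, from RefSeq on build GRCm38.p6, on the strand of the gene and 5′ to 3′. They were chosen because they hold a match, as examples from the first wave, the GTPases and the class I genes, and most class I genes held none. Capitals mark matches to the GAS letters TTCNNNGAA or the ISRE letters GAAA, any 2 bases and GAAA again. The ISRE was searched on both strands (TTTC, any 2 bases and TTTC on the other), and the GAS letters read the same on both.
Irf1 (chr11:53769864-53770013, plus strand): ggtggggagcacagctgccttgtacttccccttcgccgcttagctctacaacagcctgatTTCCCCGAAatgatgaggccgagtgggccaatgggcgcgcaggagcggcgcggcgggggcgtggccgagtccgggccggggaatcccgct
Igtp (chr11:58199406-58199555, plus strand): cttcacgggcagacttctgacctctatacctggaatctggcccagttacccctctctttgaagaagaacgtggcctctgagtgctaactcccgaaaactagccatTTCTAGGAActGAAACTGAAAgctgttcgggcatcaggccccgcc
Tgtp2 (chr11:49064213-49064362, minus strand): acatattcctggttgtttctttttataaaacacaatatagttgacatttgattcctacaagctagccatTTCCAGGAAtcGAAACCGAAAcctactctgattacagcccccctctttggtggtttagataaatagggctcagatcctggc
Irgm2 (chr11:58214827-58214976, plus strand): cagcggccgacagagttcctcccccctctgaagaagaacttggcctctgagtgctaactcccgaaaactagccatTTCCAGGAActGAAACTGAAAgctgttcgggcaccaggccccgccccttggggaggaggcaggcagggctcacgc
Gbp2 (chr3:142620513-142620662, plus strand): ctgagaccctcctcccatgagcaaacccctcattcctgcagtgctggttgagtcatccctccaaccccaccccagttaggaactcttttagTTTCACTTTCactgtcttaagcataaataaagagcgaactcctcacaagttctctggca
B2m (chr2:122147537-122147686, plus strand): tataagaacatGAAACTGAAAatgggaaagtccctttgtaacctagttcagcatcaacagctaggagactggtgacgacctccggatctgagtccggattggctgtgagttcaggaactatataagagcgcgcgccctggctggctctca

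Irf1 holds a GAS match from base 90 to base 82 before the start, and Gbp2 and B2m an ISRE match from base 59 and from base 139. In Igtp, Tgtp2 and Irgm2 a GAS match is followed after 2 bases by an ISRE match, from bases 45, 81 and 75 before the start. This joined pattern was looked for after the 3 sequences had been seen. It was found in 5 of 32851 RefSeq windows, each running from 250 bases before to 50 after a start: those of Igtp, Irgm2, Tgtp1, Tgtp2 and Gm12185, which rose by 11.22 ± 0.46 and is not on the list. Such windows may share sequence because the genes are copies of each other. In the whole windows, 5 of 5 GBP genes with an entry held an ISRE match and 2 a GAS match. Of 9 IRG genes with an entry 7 held an ISRE and 5 a GAS match, while Ifi47 and 9930111J21Rik2 held neither. An ISRE match was found in 3 of 10 class I chain genes, 2 of 8 supply and loading genes and 1 of 8 class II genes, and a GAS match in 1 gene of each of these lists. For comparison, 3.59% of the 10958 tested genes with an entry held an ISRE match and 8.12% a GAS match, and over all windows the shares were 3.44% and 8.30%. GAS and ISRE matches overlapped in 24 windows. A match describes letters only, and binding was not measured.

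**Figure D2:**
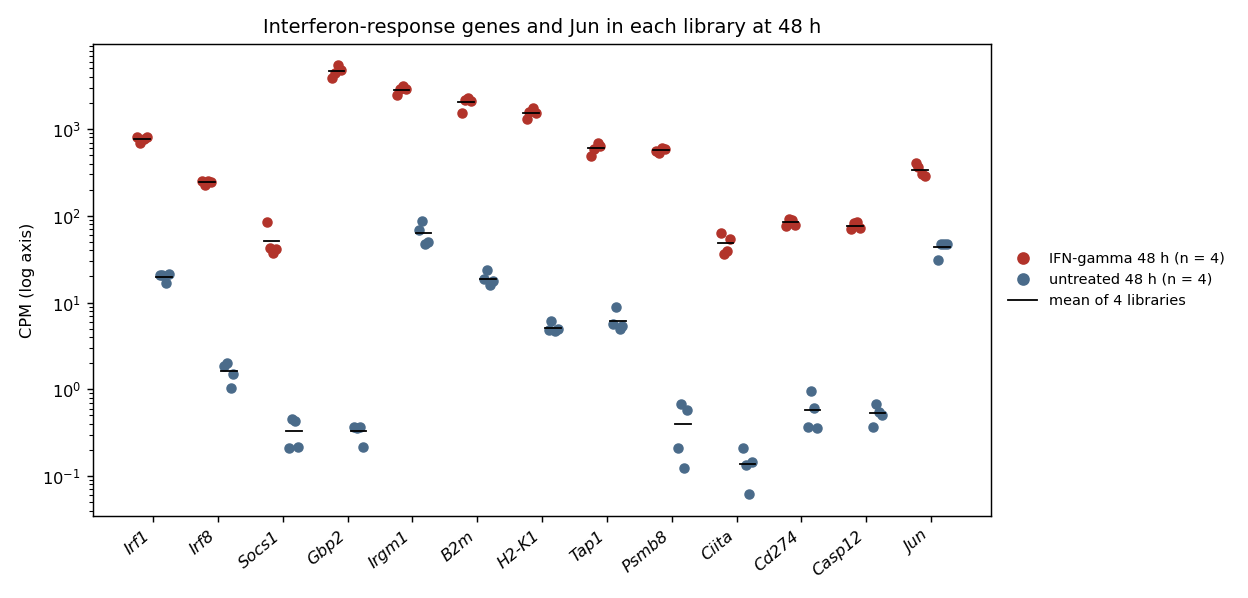
CPM on a log axis of 12 interferon-response genes and Jun in each of the 4 IFN-gamma 48 h libraries (left of each pair) and 4 untreated 48 h libraries (right), with the mean as a bar. The groups do not overlap in any of the 13 genes; Gbp2 lies at 3876 to 5417 CPM in IFN-gamma cells and below 1 CPM in untreated cells.

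Genes of antigen presentation by MHC class I rose, from heavy chain to peptide supply. The class I molecule is a heavy chain, such as H2-K1 or H2-D1, with beta-2 microglobulin (B2m), and shows peptides of the cell's own proteins to CD8 T cells. H2-K1 was at 1309, 1555, 1748 and 1519 CPM in IFN-gamma cells, against 4.77, 6.06, 4.67 and 4.98 CPM in untreated cells (log2 fold change 8.22 ± 0.26, adjusted p = 2.71e-24). B2m was at 1522, 2176, 2304 and 2134 CPM in IFN-gamma cells, against 18.5, 23.5, 15.9 and 17.7 CPM in untreated cells (6.75 ± 0.17). IFN-gamma replicate 1 was the lowest of its group in both, and the groups were far apart. H2-D1 rose by 6.24 ± 0.16, the non-classical genes H2-T23, H2-Q4 and H2-M3 by 8.63 ± 0.26, 8.99 ± 0.18 and 5.52 ± 0.21, and all 12 tested class I genes of 13 listed rose (11 with summed isoform estimates). The share of all genes that rose was 16.9%. Of the 12, 3 had fewer than 10 untreated reads and passed the filter through the libraries in which they were high. Class I genes resemble each other, so single values in the H2-Q and H2-T groups are uncertain.

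Genes for the supply of peptides rose with those of the chains. Nlrc5, the transactivator of class I genes, was at 450, 544, 631 and 590 CPM in IFN-gamma cells, against 5.39, 3.12, 8.73 and 8.87 CPM in untreated cells (log2 fold change 6.44 ± 0.28). Tap1, a subunit of the transporter that carries peptides into the endoplasmic reticulum (ER), was at 487, 595, 694 and 635 CPM in IFN-gamma cells, against 5.61, 8.77, 4.98 and 5.41 CPM in untreated cells (6.59 ± 0.18). The groups were well apart in both genes. Tap2, the tapasin gene Tapbp and the trimming peptidase Erap1 rose by 6.26 ± 0.18, 4.6 ± 0.10 and 4.33 ± 0.07. The immunoproteasome subunit Psmb8 was at 557, 526, 606 and 592 CPM in IFN-gamma cells, against 0.209, 0.678, 0.123 and 0.577 CPM in untreated cells (10.44 ± 0.27), and Psmb9 and Psmb10 rose by 9.56 ± 0.22 and 4.64 ± 0.12. The constitutive subunits that these 3 replace in the proteasome were not called: Psmb5, Psmb6 and Psmb7 changed by 0.13 ± 0.09, -0.13 ± 0.09 and -0.03 ± 0.06 (adjusted p = 0.267, 0.246 and 0.745). Of 14 constitutive 20S genes, 4 rose (28.6%, beside 16.9% of all genes), none by more than 0.36 ± 0.12 (Psmb4). None of these 4 was called in every setting, whereas the 11 supply and loading genes were. The count of 4 was 7 without IFN-gamma replicate 2 and 2 without any one of IFN-gamma replicates 1 and 4 and untreated replicate 3.

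MHC class II genes, which normally mark professional antigen-presenting cells, were also detected. Ciita, the master regulator of class II, was at 62.5, 36.7, 39.5 and 53.6 CPM in IFN-gamma cells, against 0.209, 0.136, 0.0615 and 0.144 CPM in untreated cells (log2 fold change 8.36 ± 0.43, adjusted p = 6.05e-18). H2-Eb1 was at 115, 71.4, 82.7 and 100.2 CPM in IFN-gamma cells, against 0.262, 0.136, 0.123 and 0.144 CPM in untreated cells (9.04 ± 0.31). In both genes IFN-gamma replicate 1 was the highest of its group, the reverse of its rank in class I. Cd74, the invariant chain, was at 14.4, 17.4, 18.4 and 20.5 CPM in IFN-gamma cells and had 2 reads in the untreated libraries, a ratio of 622 (172 to 5140). H2-Aa rose by 9.43 ± 0.38, H2-Ab1 by 5.94 ± 0.16 and the peptide exchange gene H2-DMa by 2.45 ± 0.12. The class II list summed to between 252 and 375 CPM in IFN-gamma libraries, against 7.50 to 8.91 CPM in untreated libraries, and the class I chains to between 5340 and 7780 CPM, against 63.1 to 80 CPM. All 7 tested class II genes of 11 listed rose, beside 16.9% of all genes. Of the 7, 3 had fewer than 10 untreated reads and passed the filter through the libraries in which they were high. Ctss, the cathepsin that trims the invariant chain in other antigen-presenting cells, was below the filter with 4 and 2 reads. Of the macrophage markers given above, neither of the 2 tested was called.

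Antiviral genes usually named after type I interferon rose in 31 of 32 tested members of 36 listed, beside 16.9% of all genes. Of the 32, 4 had fewer than 10 untreated reads and passed the filter through the libraries in which they were high. Parp14, an ADP-ribosyltransferase, was at 436, 428, 486 and 455 CPM in IFN-gamma cells, against 0.524, 0.407, 0.123 and 0 CPM in untreated cells (log2 fold change 10.56 ± 0.39). Its relatives Parp9 and Dtx3l rose by 8.46 ± 0.21 and 8.56 ± 0.22. The RNA sensor genes Ddx58 and Ifih1 rose by 4.75 ± 0.16 and 6.22 ± 0.21, and Eif2ak2, the double-stranded RNA kinase PKR, by 4.26 ± 0.11. Mx2 was the exception: it was at 21.6, 29.1, 34.2 and 28.6 CPM in IFN-gamma cells, against 22.4, 19.7, 22.8 and 19.3 CPM in untreated cells (0.43 ± 0.18, adjusted p = 0.0633), with groups that overlapped. Isg15 had 3 untreated reads and a ratio of 670 (229 to 3251). Oas2, Oas3, Oasl1 and Sp100 were below the filter.

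The chemokines Cxcl9 and Cxcl10 were present at low levels. Cxcl10, a T cell attractant, was at 13.3, 2.52, 3.50 and 5.56 CPM in IFN-gamma cells and had no read in the untreated libraries, at least 153-fold higher by the same floor. Cxcl9 reached at most 0.654 CPM, with a single untreated read, and its ratio of 28.02 had a 95% interval from 4.65 to 1145. Every IFN-gamma library lay above every untreated one in both genes, in Cxcl9 by few reads. Csf1, a growth factor of microglia, was at 82.2, 103.3, 127 and 113 CPM in IFN-gamma cells, against 56.9, 31.6, 86.4 and 79.8 CPM in untreated cells (log2 fold change 0.74 ± 0.21, adjusted p = 0.00591). Its groups overlapped, and the call was lost when only the 8 libraries were fitted (adjusted p = 0.105). Cx3cl1 and Cxcl12 rose by 1.45 ± 0.22 and 3.67 ± 0.54, Il18 and Il33 were not called (adjusted p = 0.525 and 0.980), and 7 of 15 listed genes, among them Ccl2, Ccl5 and Il6, were below the filter.

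Genes of surface proteins that instruct T cells or receive death signals rose in each of the 10 tested members of 14 listed. The share of all genes that rose was 16.9%. Of the 10, 3 had fewer than 10 reads in the untreated libraries, so that they passed the filter through the libraries in which they were high. In 8 the groups did not overlap. With the 8 libraries alone 6 rose, and 5 were called in every setting. Cd274, which codes for PD-L1, was at 77.3, 92.1, 89.4 and 78.6 CPM in IFN-gamma cells, against 0.367, 0.950, 0.615 and 0.361 CPM in untreated cells (log2 fold change 7.12 ± 0.31, adjusted p = 2.19e-20). Fas, the death receptor, was at 14.4, 11.2, 12.9 and 12.0 CPM in IFN-gamma cells, against 0.786, 2.13, 1.11 and 1.51 CPM in untreated cells (3.17 ± 0.19). The groups did not overlap in either gene. Tnfrsf1a, the tumour necrosis factor receptor, rose by 0.83 ± 0.10 and Icam1 by 4.57 ± 0.48. The costimulatory genes Cd80, Cd86 and Cd40 were below the filter, with at most 9 reads in the libraries of either group.

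Complement and cell death genes followed. Serping1, the C1 inhibitor, was at 125, 155, 191 and 183 CPM in IFN-gamma cells, against 0.209, 0.181, 0.0615 and 0 CPM in untreated cells (log2 fold change 10.27 ± 0.31). C4b was at 162, 233, 309 and 268 CPM in IFN-gamma cells, against 27, 30.9, 22.6 and 26 CPM in untreated cells (3.19 ± 0.19). The groups were apart in both, although C4b reads may be divided with its copy C4a. C2 and C1ra rose too, while C3 and Cfb were below the filter. Casp12, an inflammatory caspase, was at 69.7, 81.9, 83.9 and 73.2 CPM in IFN-gamma cells, against 0.367, 0.678, 0.553 and 0.505 CPM in untreated cells (7.16 ± 0.17). Mlkl, the executor of necroptosis, rose by 4.57 ± 0.21 and the pore former Gsdmd by 4.19 ± 0.45. Ripk3, the kinase that activates MLKL, was below the filter with 1 and 4 reads. Of the BCL2 family 4 of 14 tested genes rose (28.6%) and 1 fell (7.14%), beside 16.9% and 19.9% of all genes, and the count of rises was 2 with the 8 libraries alone. Bid rose by 1.86 ± 0.13 and Bcl2l11 by 0.51 ± 0.07, and Bcl2l1 fell by 0.27 on the log2 scale (SE 0.10) in overlapping groups, a call lost without IFN-gamma replicate 1 or untreated replicate 3 or 4. Bax, Bak1 and Mcl1 were not called.

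Structural myelin genes fell in 18 of 26 tested members of 28 listed and rose in none, with a median log2 fold change of -1.55. The 69.2% that fell stood beside 19.9% of all genes. In 5 of the 26 the IFN-gamma libraries lay all below the untreated ones, beside 9.40% of all genes. Mbp changed by -2.93 ± 0.61 (log2 fold change, adjusted p = 0.000241), and its groups overlapped through untreated replicate 2 alone. Opalin, a glycoprotein of the myelin sheath, was at 0.526, 1.04, 2.59 and 0.654 CPM in IFN-gamma cells, against 13.2, 4.16, 13.9 and 10.1 CPM in untreated cells (-3.11 ± 0.37, adjusted p = 2.33e-08). Gpr37, a receptor of differentiating oligodendrocytes, was at 1.58, 4.37, 6.63 and 4.58 CPM in IFN-gamma cells, against 47.5, 16.4, 54.0 and 57.0 CPM in untreated cells (-3.36 ± 0.33). Both groups stayed apart in these last genes, although summed isoform estimates gave only -1.10 for Gpr37 and no call (adjusted p = 0.243).

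Among the other myelin genes Mog, Mag, Mobp and Cnp changed by -2.29 ± 0.49, -1.97 ± 0.60, -2.26 ± 0.64 and -1.04 ± 0.29, and the iron carrier Trf and the junction gene Cldn11 by -2.40 ± 0.25 and -1.19 ± 0.18. Mal, Tspan2, Omg, Gjb1, Cntn2, Car2, Plekhh1 and Cryab were not called. Fewer cells at a stage and less RNA per cell cannot be told apart in bulk RNA. The list summed to 1760, 5800, 8170 and 5390 CPM in IFN-gamma cells, against 17100, 5940, 22300 and 22000 CPM in untreated cells. Without IFN-gamma replicate 1, 17 of the 26 fell, without untreated replicate 2 it was 20, and without both 19. Fitted on the 8 libraries alone 10 fell.

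**Figure D3:**
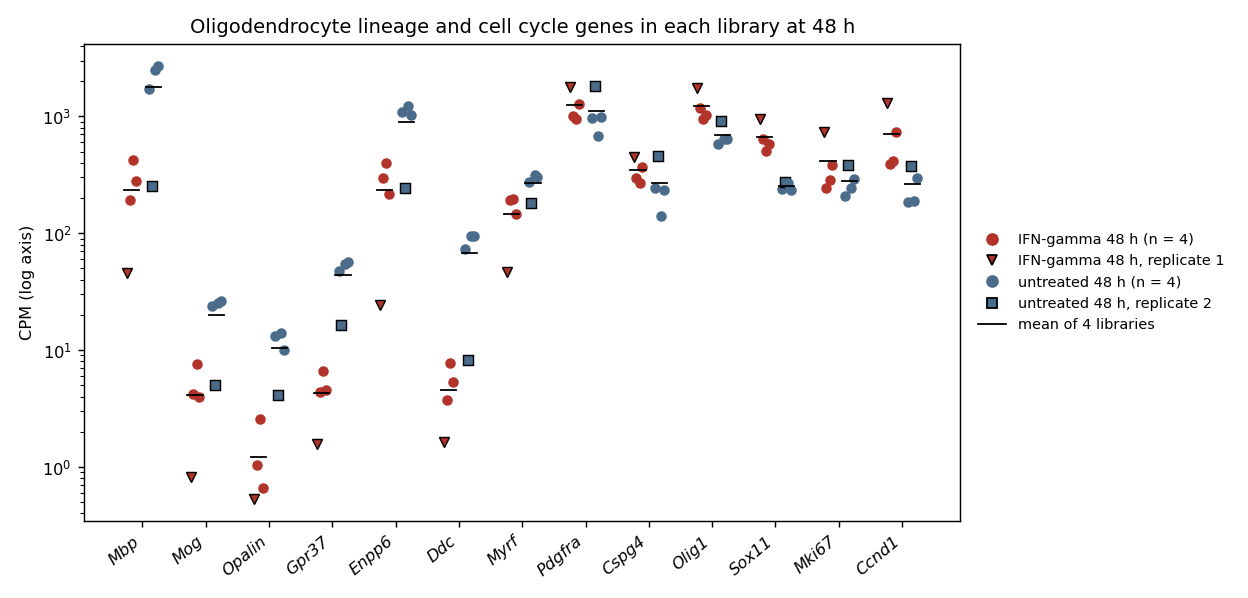
CPM on a log axis of 13 lineage and cell cycle genes in each of the 4 IFN-gamma 48 h libraries (left of each pair) and 4 untreated 48 h libraries (right), with the mean as a bar. IFN-gamma replicate 1 (triangle) is lowest in the myelin genes and highest in Mki67 and Ccnd1 (739 and 1307 CPM), and untreated replicate 2 (square) lies lowest among untreated libraries in the myelin genes.

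Genes that make the lipids of myelin fell with its proteins. Ugt8a, which makes galactosylceramide, was at 208, 639, 805 and 540 CPM in IFN-gamma cells, against 1328, 592, 2067 and 1897 CPM in untreated cells (log2 fold change -1.42 ± 0.32, adjusted p = 0.000537). Degs1, a ceramide desaturase, was at 44.1, 56.8, 64.2 and 58.3 CPM in IFN-gamma cells, against 118, 65.8, 133 and 131 CPM in untreated cells (-1.0015 ± 0.13). The groups overlapped in Ugt8a and not in Degs1. Among them Fa2h and Cers2 fell by 1.20 and 0.49 on the log2 scale (SE 0.38 and 0.08). Of 17 sphingolipid and fatty acid enzymes 14 fell (82.4%, beside 19.9% of all genes). The count was 10 without IFN-gamma replicate 1, 17 without untreated replicate 2, 16 without both and 5 with the 8 libraries alone. Cholesterol genes gave 7 falls in 24, a share of 29.2% beside the 19.9% of all genes. Hmgcs1, an early enzyme of the pathway, was at 1349, 1929, 1871 and 1554 CPM in IFN-gamma cells, against 3136, 1851, 2686 and 2559 CPM in untreated cells (-0.61 ± 0.17, adjusted p = 0.00525). It overlapped between the groups, and the count of 7 became 3 without IFN-gamma replicate 1, 3 without untreated replicate 1, 14 without untreated replicate 2 and 9 without both.

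Genes of the premyelinating stage were lower as well, less evenly. Enpp6, a choline phosphodiesterase that marks newly formed oligodendrocytes, was at 24.5, 294, 397 and 217 CPM in IFN-gamma cells, against 1084, 242, 1219 and 1026 CPM in untreated cells (log2 fold change -1.94 ± 0.61, adjusted p = 0.0123). Bcas1, another marker of this stage, was at 797, 2330, 2420 and 1860 CPM in IFN-gamma cells, against 3415, 2483, 3518 and 3075 CPM in untreated cells (-0.75 ± 0.26, adjusted p = 0.0208). The groups overlapped in Enpp6 and were only just apart in Bcas1, whose call was not kept in every fit that left out libraries. Gpr17, a receptor that peaks before myelination, was not called (-0.57 ± 0.35, adjusted p = 0.199), nor were Neu4, Bmp4, Rras2 and Lims2. Of 14 tested genes 9 fell (64.3%, beside 19.9% of all genes) and none rose. The count was 7 without IFN-gamma replicate 1, 11 without untreated replicate 2, 9 without both and 2 with the 8 libraries alone.

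The 12 largest falls, among genes above a minimum mean level whose groups did not overlap, held myelin and premyelinating genes of the lists and others outside them. Ddc, the dopa decarboxylase gene, was at 1.63, 3.71, 7.72 and 5.30 CPM in IFN-gamma cells, against 73.5, 8.28, 93.9 and 95.6 CPM in untreated cells (log2 fold change -3.91 ± 0.49). Fhl2, a LIM-domain cofactor, was at 1.87, 2.23, 2.59 and 2.62 CPM in IFN-gamma cells, against 33.7, 6.47, 39.8 and 30.3 CPM in untreated cells (-3.57 ± 0.33). In both untreated replicate 2 was the lowest untreated library and still above the highest IFN-gamma library. Further falls were those of Gng4 (-3.81 ± 0.51), Plch2 (-3.67 ± 0.51), Elmod1 (-3.61 ± 0.43), Kif26a (-3.51 ± 0.33), Fhl3 (-3.38 ± 0.43), Jakmip3 (-3.18 ± 0.52) and Thsd4 (-3.04 ± 0.38), besides Gpr37 and Opalin. Plch2 and Elmod1 in untreated replicate 2, at 1.72 and 1.90 CPM, lay near the IFN-gamma libraries, which reached 1.43 and 1.28 CPM.

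Progenitor genes were called in both directions. Pdgfra, the receptor for platelet-derived growth factor, was at 1799, 1017, 946 and 1274 CPM in IFN-gamma cells, against 970.5, 1831, 681 and 982 CPM in untreated cells (log2 fold change 0.17 ± 0.17, adjusted p = 0.459). The 2 libraries that stood apart were the highest of their groups. Without untreated replicate 2 the value was 0.52 and passed the test (adjusted p = 0.00209), without both it was 0.31 (adjusted p = 0.0305), and without IFN-gamma replicate 1 it was -0.05 (adjusted p = 0.883). Of 19 progenitor genes 4 rose and 4 fell, shares close to those of all genes. The rises numbered 8 without untreated replicate 2 and 2 without IFN-gamma replicate 1 or without untreated replicate 1, 3 or 4. Ptprz1, a receptor phosphatase of progenitors, was at 1955, 1784, 1403 and 1530 CPM in IFN-gamma cells, against 823, 1246, 761 and 752 CPM in untreated cells (0.90 ± 0.12, adjusted p = 2.72e-07), and Tmem100 rose by 0.87 ± 0.11. Ednrb, the endothelin receptor B, was at 143, 173, 175 and 188 CPM in IFN-gamma cells, against 348, 586, 340 and 334 CPM in untreated cells (-1.25 ± 0.16). Neither Ptprz1 nor Ednrb overlapped between the groups.

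Lineage transcription factors were called in both directions. Sox11, a factor of immature progenitors, was at 949, 641, 508 and 576 CPM in IFN-gamma cells, against 240, 272, 268 and 236 CPM in untreated cells (log2 fold change 1.40 ± 0.13, adjusted p = 2.95e-11). Olig1 was at 1754, 1190, 944 and 1031 CPM in IFN-gamma cells, against 579, 922, 639 and 636 CPM in untreated cells (0.83 ± 0.17). The IFN-gamma libraries lay above the untreated ones in both. Myrf, which drives myelin transcription, was at 46.4, 194, 196 and 146 CPM in IFN-gamma cells, against 276, 182, 318 and 302 CPM in untreated cells (-0.89 ± 0.29, adjusted p = 0.0152). It overlapped between the groups and was not called without IFN-gamma replicate 1 (-0.59, adjusted p = 0.0815). Sox10, Sox8 and Nkx2-2 were not called, and in all 4 of 17 factors rose (23.5%) and 5 fell (29.4%), beside 16.9% and 19.9% of all genes. The 4 rises became 2 without IFN-gamma replicate 1 or 2, without untreated replicate 1 or 4, and with the 8 libraries alone. The 5 falls became 2 without IFN-gamma replicate 1 or untreated replicate 3, 3 without IFN-gamma replicate 4, and 0 with the 8 libraries alone.

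Inhibitors of differentiation were lower more often than higher. Id1 was at 1.48, 2.95, 4.22 and 2.35 CPM in IFN-gamma cells, against 18, 7.01, 27.6 and 21.8 CPM in untreated cells (log2 fold change -2.76 ± 0.45, adjusted p = 7.81e-06). Id3 and Id4, which like Id1 code for partners that block basic helix-loop-helix factors, changed by -1.24 ± 0.24 and -1.41 ± 0.28. The groups did not overlap in the 3 genes. Notch1 and Hey1 of the Notch pathway rose by 0.51 ± 0.07 and 0.37 ± 0.08, while its target Hes5 changed by -0.74 ± 0.28 and Hes1 was not called. Of 11 tested genes 7 fell (63.6%, beside 19.9% of all genes) and 2 rose (18.2%, beside 16.9%). With the 8 libraries alone 3 fell.

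The count of cell cycle genes called higher rested largely on 1 library. Mki67, a marker of cycling cells, was at 739, 242, 285 and 384 CPM in IFN-gamma cells, against 209, 381, 242 and 289 CPM in untreated cells (log2 fold change 0.56 ± 0.22, adjusted p = 0.0460). Top2a, the topoisomerase of dividing cells, was at 1586, 556, 629 and 942 CPM in IFN-gamma cells, against 395, 630, 355 and 480 CPM in untreated cells (1.00 ± 0.20, adjusted p = 0.000204). IFN-gamma replicate 1 was the highest library in both, and the groups overlapped. Of 26 proliferation genes 22 rose (84.6%, beside 16.9% of all genes), but in none did the groups separate. The count was 2 without IFN-gamma replicate 1, 10 without untreated replicate 3, 12 without untreated replicate 1, 14 without both libraries that stood apart, 26 without untreated replicate 2 and 0 when only the 8 libraries were fitted. With the Y-linked level as a covariate it was 11. Mki67 without IFN-gamma replicate 1 stood at 0.12 (adjusted p = 0.693).

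Ccnd1, which codes for the G1 cyclin D1, was at 1307, 394, 417 and 733 CPM in IFN-gamma cells, against 186, 376, 190 and 296 CPM in untreated cells (log2 fold change 1.44 ± 0.26, adjusted p = 3.19e-05). Here the lowest IFN-gamma library lay just above the highest untreated one, and without IFN-gamma replicate 1 the value was 0.98 (adjusted p = 0.000726). The CDK inhibitor genes Cdkn2a and Cdkn1b rose by 0.81 ± 0.17 and 0.30 ± 0.08, Cdkn1c changed by -0.89 ± 0.32, and Cdkn1a was not called (adjusted p = 0.0683). Without IFN-gamma replicate 1 neither Cdkn1b (adjusted p = 0.0541) nor Cdkn1c (adjusted p = 0.15) was called. In all, 3 of 12 genes of G1 cyclins and CDK inhibitors rose (25%) and 2 fell (16.7%), near the 16.9% and 19.9% of all genes. The 3 rises became 7 without IFN-gamma replicate 3 and 6 without IFN-gamma replicate 2 or untreated replicate 2. The 2 falls became 0 without IFN-gamma replicate 4 and 1 without IFN-gamma replicate 1 or 3 or untreated replicate 1, 3 or 4. Genes of ribosomal proteins rose in 12 of 26 (46.2%, beside 16.9% of all genes), and 1 was called in every setting. The count was 8 without IFN-gamma replicate 1, 7 without IFN-gamma replicate 4 and 6 without untreated replicate 3 or 4. It was 21 without untreated replicate 2 and 19 without both libraries that stood apart. With the lower 20 library numbers alone 2 of these genes rose, and with the 8 libraries alone 1. Their largest change was 0.50 ± 0.13 (Rps19).

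**Figure D4:**
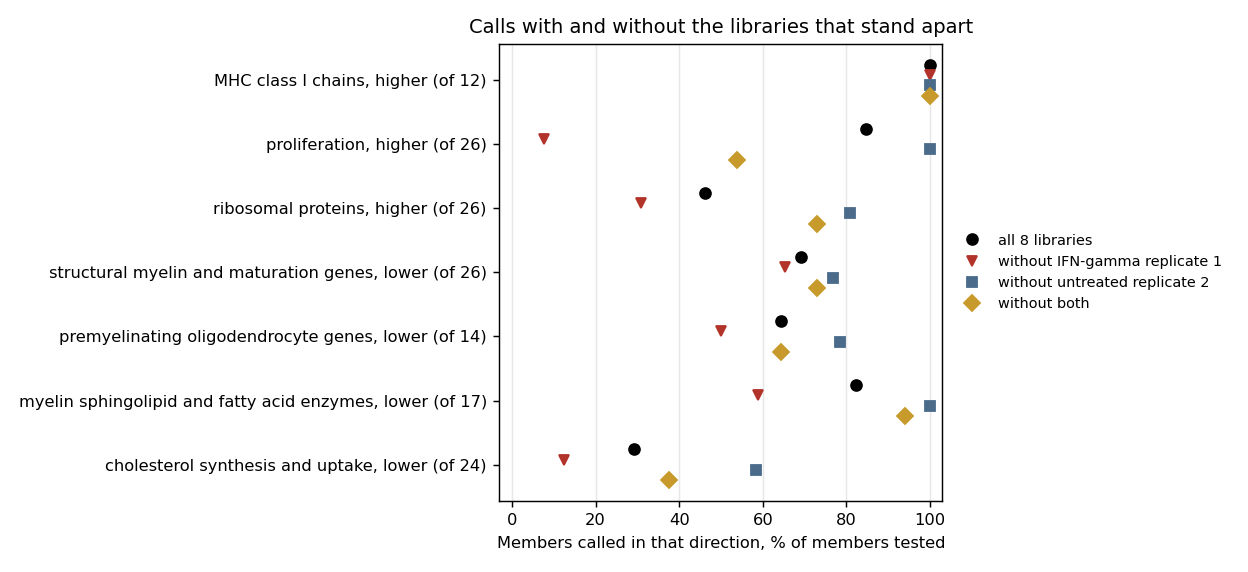
Share of the tested members of 7 gene lists called in the stated direction, in percent, with all 8 libraries, without IFN-gamma replicate 1, without untreated replicate 2 and without both. The 12 class I genes stay at 100% throughout, whereas the proliferation list has 22, 2, 26 and 14 of 26 genes called.

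Most stress genes were not called, and neither were most of all genes tested (36.8% called). The integrated stress response, which the transcription factors ATF4 and CHOP carry, had 8 rises and 4 falls in 36 genes. These shares of 22.2% and 11.1% stood beside 16.9% and 19.9% of all genes. The 8 rises became 5 without IFN-gamma replicate 1 or untreated replicate 4. With the 8 libraries alone 4 rose and 1 fell. Atf4 itself was at 173, 134, 144 and 145 CPM in IFN-gamma cells, against 162, 123, 166 and 166 CPM in untreated cells (log2 fold change -0.05 ± 0.12, adjusted p = 0.785). Ddit3, the gene of CHOP, was not called either (0.14 ± 0.15, adjusted p = 0.483), and both overlapped. Atf3, a further stress factor, was at 3.73, 1.24, 1.27 and 1.5 CPM in IFN-gamma cells, against 0.367, 0.271, 0.246 and 0.361 CPM in untreated cells (2.65 ± 0.48). The serine synthesis gene Psat1 and the folate enzyme gene Aldh1l2 changed by -0.30 ± 0.06 and -0.77 ± 0.08. Among 24 genes of ER chaperones and ER-associated degradation, Pdia4 rose by 0.17 ± 0.06 and Sel1l, Derl1, Atf6 and Eif2ak3 fell, the largest of these Derl1 (-0.31 ± 0.08). The shares of 4.17% higher and 16.7% lower stood beside 16.9% and 19.9% of all genes. The 4 falls became 8 without untreated replicate 2, 1 with the lower 20 library numbers alone and 0 with the 8 libraries alone. Sel1l was not called without IFN-gamma replicate 1 (adjusted p = 0.261). Hspa5, the chaperone BiP, was at 562, 611, 675 and 652 CPM in IFN-gamma cells, against 588, 548, 559 and 592 CPM in untreated cells (0.13 ± 0.07, adjusted p = 0.133). Wars, the tryptophanyl-tRNA synthetase gene and a known interferon target, rose by 1.87 ± 0.12, and Tars by 0.40 ± 0.06, while Aars, Gars, Sars, Nars, Eprs and Cars were not called. Of the tryptophan, nitric oxide and redox enzymes linked to interferon, Wars and Kmo, the kynurenine monooxygenase gene (3.63 ± 0.71), rose among 6 tested of 9 listed. That share of 33.3% stood beside 16.9% of all genes. Nos2, Gch1, Sod2 and Ido2 were not called, and Ido1 was below the filter with 11 and 0 reads.

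Jun, an early response factor, was at 405, 369, 307 and 285 CPM in IFN-gamma cells, against 31.1, 47.2, 47.9 and 47.9 CPM in untreated cells (log2 fold change 2.97 ± 0.18, adjusted p = 2.79e-16). Its usual partner Fos was at 78.4, 61.9, 73.8 and 69.4 CPM in IFN-gamma cells, against 92.1, 93.5, 85.8 and 88.7 CPM in untreated cells (-0.35 ± 0.10, adjusted p = 0.00768). The groups were apart in both genes, in opposite directions. Egr2 and Fosl2 rose by 3.07 ± 0.32 and 1.43 ± 0.28, Junb, Jund and Egr1 were not called, and 5 of 20 immediate early genes rose (25%) and 3 fell (15%), near the 16.9% and 19.9% of all genes. Of 11 genes of NF-kappaB signalling 5 rose (45.5%, 2 with the 8 libraries alone) and 3 fell (27.3%, 1 without untreated replicate 3 or with the 8 libraries alone), beside 16.9% and 19.9% of all genes. The greatest rise was that of the feedback gene Tnfaip3 (A20), at 20.4, 9.6, 8.8 and 12.5 CPM in IFN-gamma cells, against 1.47, 2.26, 0.553 and 1.15 CPM in untreated cells (3.18 ± 0.25).

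Genes described in disease-associated oligodendrocytes rose in 6 of 12 tested members of 14 listed (50%, beside 16.9% of all genes). A single member fell (8.33%, beside 19.9%). Serpina3f, a serine protease inhibitor, was at 106, 76.1, 88.1 and 108 CPM in IFN-gamma cells, against 0.105, 0.136, 0.246 and 0.144 CPM in untreated cells (log2 fold change 9.20 ± 0.40), and Serpina3i rose by 3.52 ± 0.15. Serpina3n, the family member most often used as the marker, was at 334, 894, 998 and 772 CPM in IFN-gamma cells, against 1189, 931, 900 and 903 CPM in untreated cells and was not called (-0.39 ± 0.18, adjusted p = 0.0918). The Serpina3 copies resemble each other, so their single values are uncertain. B2m, H2-D1 and C4b of this list belong to the groups above, Il33 was not called, and Klk6 was below the filter.

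Markers of other cell types were called in both directions. The 12 astrocyte markers summed to between 468 and 604 CPM in IFN-gamma libraries and between 384 and 496 CPM in untreated libraries, and the 12 neuron markers to between 1400 and 1940 CPM in IFN-gamma libraries and between 1460 and 1660 CPM in untreated libraries. The 10 endothelial and mural markers summed to 10 to 13.2 CPM in IFN-gamma libraries and 4.24 to 10.1 CPM in untreated libraries, and the 8 fibroblast and meningeal markers to 15 to 17.5 and 15.2 to 20.8 CPM. Of the tested markers, 3 of 10 astrocyte genes rose and 3 fell, 4 of 10 neuron genes rose, 1 of 6 endothelial and mural genes rose and 2 fell, and 2 of 4 fibroblast and meningeal genes rose and 2 fell. These counts are small. The shares higher and lower were 30% and 30% for astrocyte genes and 40% and 0% for neuron genes. They were 16.7% and 33.3% for endothelial and mural genes and 50% and 50% for fibroblast and meningeal genes. Of all genes 16.9% rose and 19.9% fell. With the 8 libraries alone no astrocyte gene was called higher, and the 2 endothelial and mural falls became 1 without IFN-gamma replicate 1, 3 or 4 or untreated replicate 1 or 4. The part of such cells in the results was not tested. Sox9, shared by astrocytes and early progenitors, was at 117, 32.6, 27.9 and 57.4 CPM in IFN-gamma cells, against 9.32, 38.2, 4.55 and 13.3 CPM in untreated cells (log2 fold change 1.82 ± 0.39, adjusted p = 0.000377). The libraries that stood apart were again the highest of their groups, and the value was 1.24 without IFN-gamma replicate 1 and 2.71 without untreated replicate 2. Gfap and Aqp4, which define astrocytes, changed by -0.94 ± 0.29 and -1.17 ± 0.33. Gfap was not called without IFN-gamma replicate 1 (adjusted p = 0.06). Of the smooth muscle genes Acta2 was at 9.09, 8.08, 7.72 and 8.83 CPM in IFN-gamma cells, against 0.786, 0.905, 0.738 and 1.08 CPM in untreated cells (3.26 ± 0.26). Lum, a proteoglycan gene of fibroblasts, was at 8.09, 6.42, 8.2 and 9.61 CPM in IFN-gamma cells, against 0.0524, 0.181, 0 and 0.0721 CPM in untreated cells (6.48 ± 0.42). Both were apart between the groups, while the fibroblast genes Col1a1, Col1a2, Col3a1 and Dcn were below the filter in both. Other called members of these lists went mostly the other way. Tagln, also a smooth muscle gene, changed by -1.46 (adjusted p = 0.0394), a call lost without IFN-gamma replicate 1 (adjusted p = 0.163). The endothelial gene Kdr changed by -1.60. On the fibroblast and meningeal list Postn and Igfbp2 changed by -2.78 and -1.78, and Fn1 by 1.70. Of the neuron markers Tubb3 and Gap43 rose by 1.22 ± 0.13 and 0.84 ± 0.08. None of 11 mitochondrially encoded transcripts was called by edgeR or DESeq2, and the lowest unadjusted p in edgeR was 0.271 (mt-Atp6).

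The 48 h response was set beside that at 24 h, in 4 IFN-gamma and 4 untreated libraries of that time, which are other samples. At 24 h 1908 genes rose (12.6%) and 1585 fell (10.5%). Of the genes that rose at 48 h 55.7% had also risen at 24 h, which was 74.5% of the 24 h rises, and of those that fell at 48 h 37.0% had also fallen at 24 h, which was 70.3% of the 24 h falls. The difference between the 2 effects, tested as an interaction, was called for 255 genes: 41 with a greater value at 48 h (0.271%) and 214 with a lower one (1.41%). In 209 of the 214 the mean of IFN-gamma cells changed less between 24 and 48 h than the mean of untreated cells, with median log2 changes of 0.02 and 0.71.

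Carmil1, a regulator of actin capping, shows such a gene. It averaged 59.2 ± 8.96 CPM in IFN-gamma cells and 55.4 ± 32.2 CPM in untreated cells at 48 h, and 67.1 ± 3.85 CPM in IFN-gamma cells and 7.85 ± 1.62 CPM in untreated cells at 24 h (SD, n = 4 each). The difference of effects was -2.98 ± 0.39 on the log2 scale (adjusted p = 4.35e-05). Man1a, a mannosidase of the Golgi, averaged 11.9 ± 3.91 CPM in IFN-gamma cells and 79.04 ± 49.7 CPM in untreated cells at 48 h, and 11 ± 2.27 CPM in IFN-gamma cells and 12.1 ± 3.35 CPM in untreated cells at 24 h (difference -2.58 ± 0.49). In both genes it was the untreated level that differed between the times. Scd2, which desaturates fatty acids for myelin lipids, had a difference of -0.64 ± 0.15 (adjusted p = 0.0179). Acta2 and Gbp6 had differences of -1.87 ± 0.43 and -1.68 ± 0.37, at IFN-gamma levels that were close at both times (8.43 and 9.98 CPM for Acta2, 755 and 690 CPM for Gbp6).

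The 41 greater effects had median log2 changes with time of 0.12 in IFN-gamma cells and -0.58 in untreated cells. Tap1 averaged 603 ± 87.1 CPM in IFN-gamma cells and 6.19 ± 1.74 CPM in untreated cells at 48 h, and 522 ± 30.6 CPM in IFN-gamma cells and 11.6 ± 1.45 CPM in untreated cells at 24 h (difference 1.09 ± 0.21, adjusted p = 0.00610). The interferon targets Herc6 and H2-Q4 had differences of 1.09 ± 0.19 and 1.00 ± 0.26. Vstm2a was unlike these: it averaged 12.0 ± 5.95 CPM in IFN-gamma cells and 1.45 ± 0.525 CPM in untreated cells at 48 h, and 3.94 ± 0.953 CPM in IFN-gamma cells and 2.50 ± 0.535 CPM in untreated cells at 24 h (difference 2.36 ± 0.41). The count of 255 depends on the libraries used. It was 1876 when untreated replicate 2 of 48 h was left out, 545 when untreated replicate 4 of 24 h was, 67 and 71 when untreated replicates 3 and 4 of 48 h were, and 0 when only the 16 libraries of the 4 groups were fitted, where 1239 genes had an unadjusted p under 0.05.

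**Figure D5:**
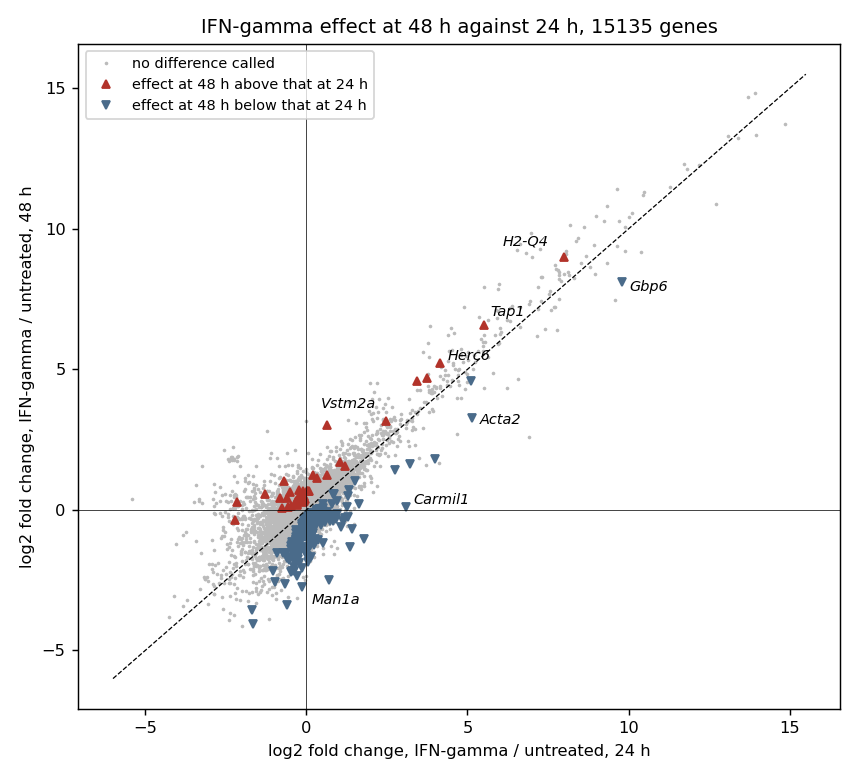
Log2 fold change of IFN-gamma over untreated cells at 48 h (vertical) against that at 24 h (horizontal) for 15135 genes, with the line of equal effect dashed. Triangles mark the 41 genes with a greater and the 214 with a lower value at 48 h; 166 of the 214 were called lower in IFN-gamma cells at 48 h.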

How the data were processed

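RNA sequencing of 40 libraries gave, per the submitters' processing notes, reads processed with STAR, featureCounts, kallisto and edgeR. The deposited gene table holds whole counts per gene, and the authors' isoform table holds estimated counts, used here only summed per gene and rounded. Not given in the sources used here were build, annotation and strand setting. Groups come from the labels, and replicate numbers follow deposition order and pair nothing. Symbols came from GENCODE for 38872 of 39056 identifiers. Genes with low counts were removed by edgeR's filterByExpr, sizes were TMM-scaled, and edgeR 4.0.16 (R 4.3.3) fitted 1 mean per group over 40 libraries in 10 groups, with 30 residual degrees of freedom. Contrasts were tested by quasi-likelihood F test with Benjamini-Hochberg adjustment at 0.05 over 15135 genes; the fitted log2 fold change used a prior count of 0.125, and its SE is the change divided by the root of F. The 24 h and 48 h effects share no library. Read ratios carry exact 95% intervals. Promoter sequences are from RefSeq on GRCm38.p6, used for letters and not for the reads.

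Named genes are the 12 largest changes in each direction among called genes whose groups did not overlap and whose mean log2 CPM reached 1, up to 6 called members of each list by adjusted p, the 6 largest differences between times in each direction, and fixed genes of the pathway and lineage. A few named genes are not reported here. Others named within a list were chosen after their values were seen. The lists and members were chosen with earlier results of these data known. Alternatives were other size factors, DESeq2 1.42.0, no filter, fewer libraries in the fit, a block, a Y-linked covariate, the isoform table and each library left out. The 48 h contrast and the difference between times were tested on simulated data with edgeR and DESeq2. For the difference both made more false calls than the nominal share, DESeq2 the more, and small changes were often missed.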

Additional observations from a re-analysis of the deposited data

Results flagged for a closer look

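In 92 groups of 4 libraries, 10 had a library far from its other 3. The rule used flags about 1 in 20 by chance only for independent, normally spread values. These groups share the same libraries and some hold few reads, so the 10 cannot be set against that rate. Untreated replicate 2 stood low in Plch2 (1.72 CPM), Elmod1 (1.90 CPM), Mog (5.02 CPM) and Mag (165.9 CPM). It alone held the untreated reads of Tgtp1 (0.136 CPM), 9930111J21Rik2 (0.0905 CPM) and Cd74 (0.0905 CPM). IFN-gamma replicate 1 stood high in Socs1 (83.7 CPM), IFN-gamma replicate 2 low in Ifngr2 (14.7 CPM), and untreated replicate 4 low in Gbp2 (0.216 CPM).

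The IFN-gamma effect at 48 h minus that at 24 h passed edgeR's test of the difference itself for 11 genes named here. It was positive for Vstm2a (2.36), Zfp804a (1.88), Plekha2 (1.15), Mapkapk3 (1.13), Herc6 (1.09) and Tap1 (1.09) on the log2 scale. It was negative for Carmil1 (-2.98), Epb41l4a (-2.83), Fhl3 (-2.79), Tspan4 (-2.66) and Man1a (-2.58). None of these differences was called when only the 16 libraries of the 4 groups were fitted, where edgeR called 0 genes and 1239 had an unadjusted p under 0.05; DESeq2 on all libraries called 436.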

How the results depend on the processing

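With only the compared groups in the fit, 2041 genes were called at 48 h (1002 higher, 1039 lower, 866 at least 2-fold), and with the lower 20 library numbers alone 3039 (1592 and 1447). A test against a 2-fold threshold called 571. At 24 h the lower 20 alone gave 1526 (980 and 546). The count of 255 differences between times (41 positive, 214 negative) became 436 (88 and 348) with DESeq2, 461 (152 and 309) with the upper 20 library numbers, 76 (14 and 62) with isoform sums, 1602 (595 and 1007) without both libraries that stood apart, and 0 with only the compared groups or the lower 20 alone, where 1239 and 946 genes had an unadjusted p under 0.05. Leaving out single libraries gave 67 to 1876 differences (10 to 703 positive, 57 to 1173 negative), and 4135 to 6441 called genes at 48 h. With a replicate block that separates library numbers up to 20 from the later ones, which the labels do not call batches, 5798 genes and 404 differences (72 and 332) were called. Among named genes called at 48 h the direction turned for Arc (0.24 with the lower 20 alone) and Tagln (0.0235 with isoform sums). The values of 3 named genes not called also changed sign in some settings, among them Pdgfra (-0.05 without IFN-gamma replicate 1), Carmil1 (-0.38 with the upper 20 alone) and Zfp804a (0.0099 without both libraries). The cause was not tested. Calls of genes with few reads in all 8 libraries are limited by depth.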
